A study of Mus musculus with 8 samples.

Results

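The comparison described here sets the 2 libraries labelled LPS_IFNg_TubB against the 2 labelled LPS_IFNg, gene by gene, in RAW264.7 cells. It uses 4 of the 8 libraries of the series, chosen by their deposited labels alone, and all 10644 genes that passed a filter on low counts. RAW264.7 is a mouse macrophage-like line established from a tumour induced by Abelson leukaemia virus. Cells labelled LPS_IFNg received lipopolysaccharide (LPS, a bacterial outer membrane component) at 10 ng/ml with interferon-gamma (IFN-γ) at 20 ng/ml for 24 h, and cells labelled LPS_IFNg_TubB received both agents at the same doses together with Tubuloside B, a phenylethanoid glycoside. No source used here gives the dose of Tubuloside B. The labels thus place the stimulus in both groups and the compound in 1 of them. The other 4 libraries, used only as a reference, are labelled mock (the solvent DMSO) and TubB (the compound alone), with 2 libraries each. By its title, the study asked whether the compound tempers inflammation in mouse macrophages. Polyadenylated RNA was sequenced without keeping its strand, so reads of overlapping and antisense genes cannot be told apart. Nothing in the labels says that the replicates came from separate cultures, so the p-values measure only the spread between these libraries, which may be technical.

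LPS is sensed by Toll-like receptor 4 and acts through the adaptors MyD88 and TRIF on NF-kappaB, MAP kinases and interferon regulatory factors. IFN-γ acts through its receptor and Janus kinases on STAT transcription factors, which bind GAS elements and induce the transcription factor IRF1. Interferon regulatory factors bind another element, the ISRE. In macrophages the pair of agents is known to induce nitric oxide synthase, inflammatory cytokines, guanylate-binding proteins and glycolysis, and to slow proliferation.

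The marker genes conflict with the labels. Nos2 encodes the nitric oxide synthase that LPS and IFN-γ are known to induce, and lies on chromosome 11 from 78920787 to 78960226 (GRCm38.p6). It had 199 and 166 CPM (counts scaled to a common library size) in the 2 libraries labelled LPS_IFNg. This was the level of the libraries labelled mock, which had 176 and 155 CPM. The libraries labelled LPS_IFNg_TubB had 7429 and 6156 CPM, and those labelled TubB, which carry no stimulus by their labels, had 6964 and 5762 CPM. Irf1, Acod1, Ptgs2 and B2m split the 8 libraries in the same way. The labels are kept as deposited throughout, and every direction below is a direction between libraries so labelled. The marker levels follow the compound in the labels and not the stimulus.

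**Figure D1:**
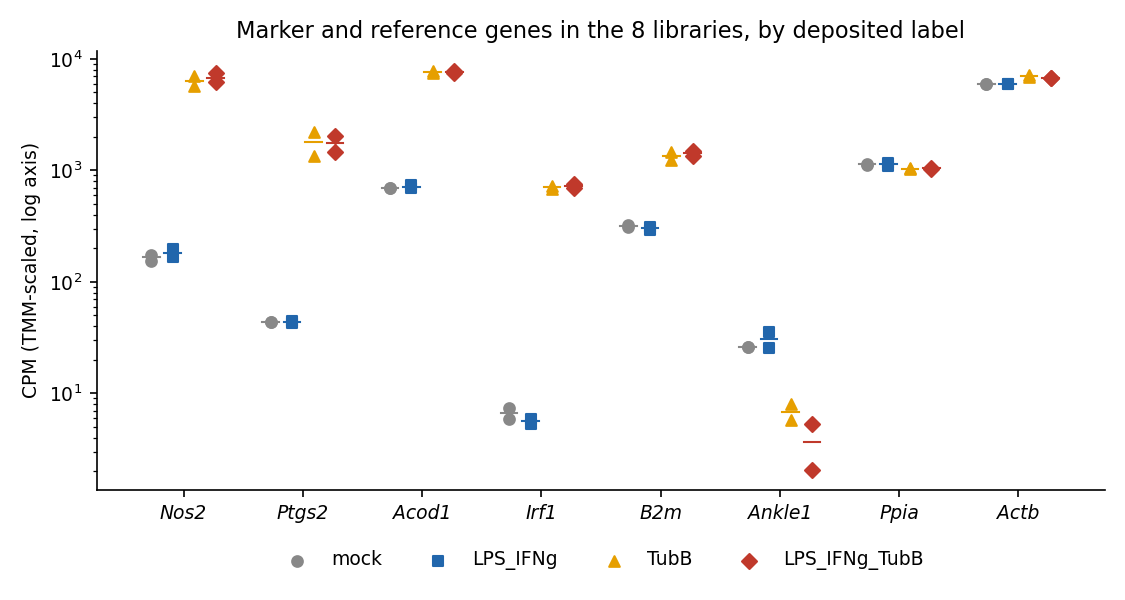
CPM on a log axis of 8 genes in each of the 8 libraries, with 2 points per deposited label and a short line at their mean. Nos2, Ptgs2, Acod1, Irf1 and B2m are low in the libraries labelled mock and LPS_IFNg and high in those labelled TubB and LPS_IFNg_TubB, Ankle1 shows the reverse, and the reference genes Ppia and Actb differ little.

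Ankle1 (an endonuclease with ankyrin repeats and a LEM domain; chromosome 8, 71405986 to 71410728) ran the other way. It had 35.8 and 25.4 CPM in the libraries labelled LPS_IFNg against 2.07 and 5.29 CPM in those labelled LPS_IFNg_TubB. The groups did not overlap, and the log2 fold change was -2.96 ± 0.28 (SE, n = 2 per group; edgeR adjusted p = 1.1e-09). Without LPS_IFNg_TubB replicate 2 it was -3.87. The libraries labelled mock had 25.8 and 26.1 CPM and those labelled TubB 5.71 and 8.04 CPM.

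Markers of the labelled cell type were present. Lyz2 (lysozyme) had 4549 and 4631 CPM in the libraries labelled LPS_IFNg and 4812 and 4647 CPM in those labelled LPS_IFNg_TubB, and Cd68 lay between 905 and 996 CPM in all 4. Of 15 macrophage markers, 11 were measured, and Mertk, Aif1 and Laptm5 held 0 counts in all 8 libraries. Lists of markers for T or NK cells, B cells, mast cells, fibroblasts, epithelium, endothelium and erythroid cells had no measured member, and each of their genes held between 0 and 5 counts per library. Of the 10 neutrophil markers, S100a8 rose from 28 and 27 counts to 181 and 219 and Csf3r also rose, while S100a9, Ly6g, Mpo, Ngp and Retnlg held 0. Of the 8 dendritic cell markers, Xcr1 had 0 and 2 counts against 56 and 65, Itgax fell, and Flt3, Cd209a and Siglech held 0 counts. A count of 0 does not by itself show absence. Of 1740 symbols that also occur with a numbered copy in the annotation, 1294 held 0 counts in these 4 libraries. Such symbols include 2 of the 15 macrophage markers.

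Library totals in the 4 libraries ranged from 4767894 to 6443351 counts. Replicates resembled each other far more than groups did, with a mean chi-square per gene between replicates of 2.53 for LPS_IFNg and 3.2 for LPS_IFNg_TubB and of 64.8 to 75.9 between libraries of different labels. In bulk RNA fewer cells of a kind and less RNA per cell cannot be told apart.

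The starts of 6 genes are shown first, as chosen examples of elements that can be read in them. They are the 250 bases before the annotated RefSeq start, on GRCm38.p6, 5′ to 3′ on the gene's strand. For the 4 genes that rose in the libraries labelled LPS_IFNg_TubB, capitals mark matches on either strand to the ISRE core (GAAA, any 2 bases, GAAA), the GAS element TTCNNNGAA or the kappaB site (GGGA, any 2 bases, TTCC). Gbp5 (guanylate-binding protein 5, chr3:142496684-142496933, plus strand) holds GAS matches whose first bases lie at -245 and -52, an ISRE match at -165 and a kappaB match at -77. Gbp2 (chr3:142620413-142620662, plus strand) holds an ISRE match at -59. Irf1 (first of 2 annotated starts, chr11:53769764-53770013, plus strand) holds a GAS match at -90. The 250 bases before its second start, not shown, hold no match to these elements. Cxcl10 (a chemokine that attracts T cells, chr5:92348890-92349139, minus strand) holds an ISRE match at -213 and a kappaB match at -159.
Gbp5: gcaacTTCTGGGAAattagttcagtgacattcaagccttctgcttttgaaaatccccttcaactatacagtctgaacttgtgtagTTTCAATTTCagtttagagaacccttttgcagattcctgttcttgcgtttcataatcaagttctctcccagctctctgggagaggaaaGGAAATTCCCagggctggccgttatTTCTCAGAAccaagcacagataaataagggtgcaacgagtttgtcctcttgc
Gbp2: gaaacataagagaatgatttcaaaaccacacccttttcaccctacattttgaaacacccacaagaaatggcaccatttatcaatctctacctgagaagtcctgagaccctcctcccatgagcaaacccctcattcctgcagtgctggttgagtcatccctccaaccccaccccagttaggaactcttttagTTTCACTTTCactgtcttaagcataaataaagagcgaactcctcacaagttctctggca
Irf1: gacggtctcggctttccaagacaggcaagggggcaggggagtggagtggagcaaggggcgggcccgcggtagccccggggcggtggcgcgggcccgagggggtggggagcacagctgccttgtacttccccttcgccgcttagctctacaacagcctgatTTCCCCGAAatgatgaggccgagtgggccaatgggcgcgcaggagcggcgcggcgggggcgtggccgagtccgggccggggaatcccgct
Cxcl10: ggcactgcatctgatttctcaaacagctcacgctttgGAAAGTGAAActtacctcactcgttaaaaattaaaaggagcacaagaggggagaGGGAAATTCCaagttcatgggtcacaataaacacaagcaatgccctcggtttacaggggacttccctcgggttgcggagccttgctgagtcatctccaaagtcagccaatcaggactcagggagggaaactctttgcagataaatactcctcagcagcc

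For 2 genes that fell, capitals mark matches to the E2F site GGCGGGAA, the CHR element TTTGAA or the CCAAT box. CHR and CCAAT elements are known from promoters of genes expressed late in the cell cycle. Plk1 (polo-like kinase 1, chr7:122159185-122159434, plus strand) holds a CCAAT box at -14, and a CHR match at 31 lies beyond the stretch shown. Ankle1 (chr8:71405762-71406011, plus strand) holds a CHR match at -10. Capitals leave out CHR and CCAAT matches in the genes that rose. CHR matches lie at -206 in Gbp5 and at -232 and -203 in Gbp2, and CCAAT boxes at -63 in Irf1 and -54 in Cxcl10. A match is a run of letters and not a measured binding site.
Plk1: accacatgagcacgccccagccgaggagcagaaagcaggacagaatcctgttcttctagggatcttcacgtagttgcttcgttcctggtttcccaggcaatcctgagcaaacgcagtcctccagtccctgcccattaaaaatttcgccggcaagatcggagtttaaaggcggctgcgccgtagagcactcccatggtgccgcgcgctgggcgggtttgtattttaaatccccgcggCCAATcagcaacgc
Ankle1: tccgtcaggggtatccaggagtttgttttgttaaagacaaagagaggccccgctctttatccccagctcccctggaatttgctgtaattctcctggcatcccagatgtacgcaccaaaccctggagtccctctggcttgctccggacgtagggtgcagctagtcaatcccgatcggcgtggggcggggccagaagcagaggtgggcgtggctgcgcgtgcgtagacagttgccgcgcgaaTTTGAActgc

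In the 300 bases from 250 before to 50 after each start, the ISRE core occurred in 3.13% of the 10705 promoters of tested genes and in 3.44% of all 32851 promoters in the RefSeq table. It occurred in 8.72% of the 1101 promoters of genes called higher by at least 2-fold and in 21.4% of the 187 promoters of those called higher by at least 8-fold, a group within the former. Among genes called lower by at least 2-fold it occurred in 1.32% of 680 promoters. The GAS element followed at 6.88%, 9.26%, 14.4% and 5.44% of the promoters of tested genes, the 2 groups of risen genes and the fallen genes, respectively. The kappaB site was rarer, in 1.57% of promoters of tested genes and 3.74% of those at least 8-fold higher. The CHR element occurred in 12.6% of promoters of tested genes and 19.3% of those of the fallen genes, and the E2F site in 4.02% and 3.53%. Over all promoters in the RefSeq table, CHR occurred in 17.9%, near the share in the fallen genes. GAS occurred there in 8.3%, kappaB in 1.47% and E2F in 2.19%. In the lists described below, 10 of 11 promoters of interferon-inducible GTPases held an ISRE core, 4 of 13 promoters of chemokines a kappaB site, and 24 of 34 promoters of mitosis genes a CHR element. In the 200 bases before the start alone, 11 of the 34 held a CHR element, and the kappaB site occurred in 1.6% of promoters of genes at least 8-fold higher and 1.2% of those of tested genes. These shares are descriptions of letters and were not tested. A CHR match of 6 letters is far more frequent than a match to a longer motif.

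**Figure D2:**
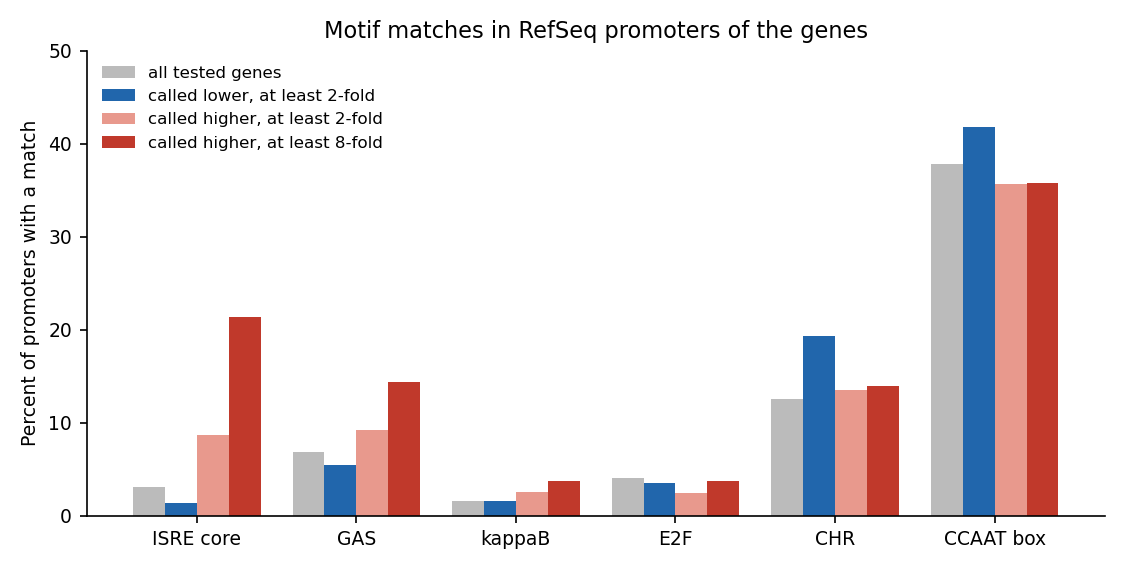
Percent of RefSeq promoters, from 250 bases before to 50 after the start, that hold each of 6 motifs on either strand, for all tested genes and for genes called lower or higher between the libraries labelled LPS_IFNg_TubB and LPS_IFNg. The ISRE core reaches 21.4% in genes at least 8-fold higher against 3.13% over all tested genes, while CCAAT boxes range only from 35.7% to 41.8%.

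Across the 10644 genes, edgeR called 5645 different at an adjusted p under 0.05, which is 53% of those tested. Of these, 2889 (27.1%) were higher in the libraries labelled LPS_IFNg_TubB and 2756 (25.9%) were lower. At least 2-fold changes were fewer and less even, with 1063 genes higher (9.99%) and 677 lower (6.36%). The largest changes lay almost all on the high side, where 210 genes were over 8-fold higher and 17 over 8-fold lower. Both numbers include genes that passed the count filter through 1 group only, for which the filter sets the direction of a call. Over all tested genes, 219 passed only through the libraries labelled LPS_IFNg_TubB, and 200 of these were called higher. Only through the libraries labelled LPS_IFNg passed 150, of which 78 were called lower. Both libraries labelled LPS_IFNg_TubB lay above both labelled LPS_IFNg in 4086 genes (38.4%) and below both in 4072 (38.3%). The median log2 fold change over all tested genes was -0.0059. With libraries scaled to their totals alone, the median moved to -0.22 and the split to 1991 higher and 4144 lower, and changes are therefore relative to the typical gene. The share of genes called rose with abundance, from 34% in the least abundant of 4 equal classes to 69.3% in the most abundant, while the median size of a called log2 change fell from 1.51 to 0.52.

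**Figure D3:**
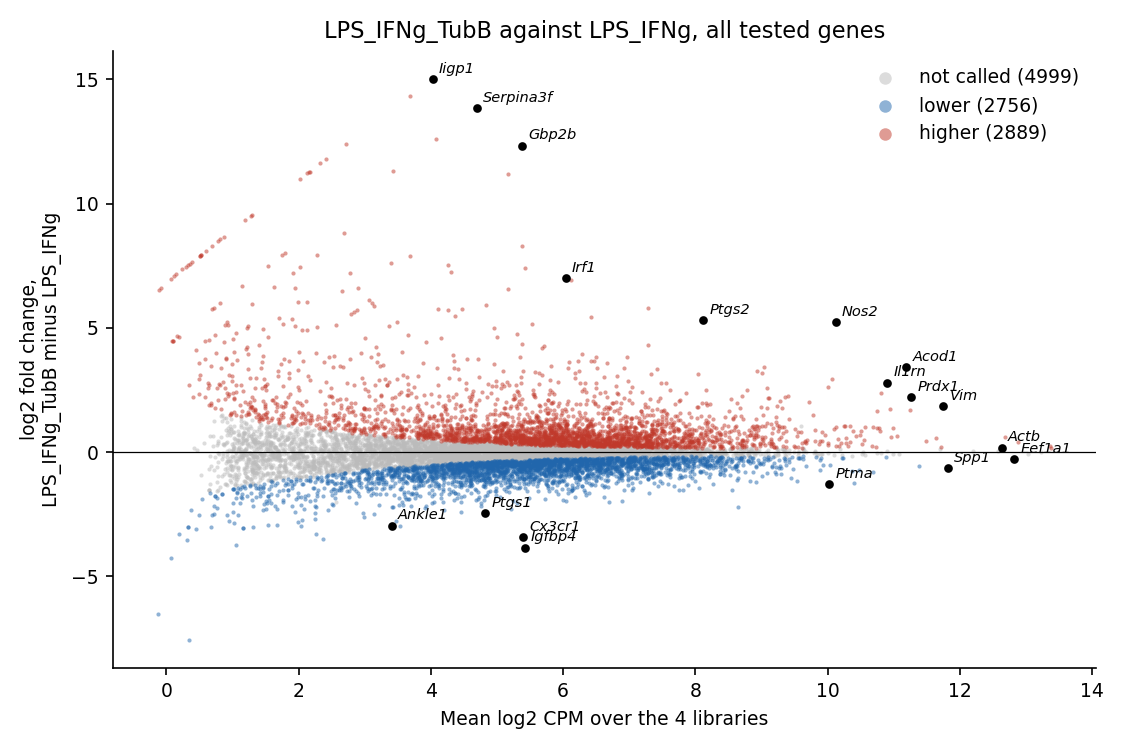
The log2 fold change of each tested gene, LPS_IFNg_TubB minus LPS_IFNg by deposited label, against its mean log2 CPM over the 4 libraries, with genes called higher in red, called lower in blue and not called in grey. Rises reach 15.02 on the log2 scale and falls -7.55, and the straight line of points at the upper left holds genes with 0 counts in the libraries labelled LPS_IFNg, whose fitted values are no measured fold.

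Genes called higher made up 32.1% and 32.9% of all counts in the libraries labelled LPS_IFNg and 52.7% and 50.4% in those labelled LPS_IFNg_TubB. Genes called lower went from 33.8% and 33% to 18.4% and 20%. The largest gain in CPM was that of Acod1, which encodes the enzyme that makes itaconate, and the next was that of Nos2. Acod1 took 0.0798% and 0.0737% of counts in the libraries labelled LPS_IFNg against 0.706% and 0.705% in the others. Vim (the intermediate filament protein vimentin), Il1rn (the secreted antagonist of the interleukin-1 receptor) and Prdx1 (a peroxide-reducing enzyme) followed, with log2 fold changes of 1.84 ± 0.07, 2.80 ± 0.07 and 2.21 ± 0.08. The largest losses in CPM among named genes were in Spp1 (osteopontin, a secreted adhesion protein), Eef1a1 (translation elongation factor 1A), Ncl (nucleolin), Ptma (prothymosin alpha) and Hsp90b1 (an endoplasmic reticulum chaperone). Spp1 fell from 0.49% and 0.481% of counts to 0.268% and 0.272%. Ptma fell from 1646 and 1603 CPM to 643 and 688 CPM, a log2 fold change of -1.29 ± 0.07. Eef1a1 was lower by a log2 fold change of only -0.27 ± 0.06, and its call was lost when the test asked for more than a 1.2-fold change.

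The 10 largest rises among genes averaging 3 log2 CPM or more were Iigp1, Serpina3g, Serpina3f, Gbp5, Gbp2b, Batf2, Gbp2, Gbp7, Zbp1 and Slamf8. In the libraries labelled LPS_IFNg none of these genes passed 2.47 CPM. All of them but Gbp7 passed the count filter only through the libraries labelled LPS_IFNg_TubB, so that their calls could only be higher. Serpina3g, a serine protease inhibitor of a cluster of near-identical genes, held 0 counts in both libraries labelled LPS_IFNg and 4749 counts over the 2 labelled LPS_IFNg_TubB. With a floor of 3 counts over the group it was at least 1825-fold higher. The limit was 901-fold without LPS_IFNg replicate 1 and 924-fold without LPS_IFNg replicate 2. Such limits and the intervals below cover counting error only. Its neighbour Serpina3f held 1 count over the 2 libraries labelled LPS_IFNg, in replicate 1, and 1629 and 1468 CPM in the others. Reads can be shared or lost among members of this cluster, so the split between them is uncertain. Batf2, a basic leucine zipper transcription factor, had 1 count against 2791, a ratio of 3219 with an exact 95% interval from 577 to 1.272e+05. Without LPS_IFNg replicate 1, which held that count, it was at least 530-fold higher, and without LPS_IFNg replicate 2 the ratio was 1630. Zbp1, a sensor of Z-form nucleic acid, had 0.824 and 0.507 CPM against 178 and 148, and Slamf8, a macrophage surface receptor, had 0.659 and 0.507 CPM against 114 and 122.

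The 10 largest falls were smaller. Igfbp4, which binds insulin-like growth factors, had 149 and 176 CPM in the libraries labelled LPS_IFNg and 9.2 and 12.9 CPM in those labelled LPS_IFNg_TubB, a log2 fold change of -3.84 ± 0.14 (adjusted p = 5.76e-21). Cx3cr1, the fractalkine receptor, fell from 146 and 129 CPM to 10.6 and 14.7 CPM (-3.41 ± 0.14). Tfap4, a transcription factor of the MYC network, fell from 33.1 and 28.9 CPM to 3.91 and 3.97 CPM. The 10 were taken only from called genes whose groups did not overlap, which held for 5640 of all 5645 called genes. Ankle1, Sapcd2, Ptgs1 (the constitutive cyclooxygenase), Elovl6 (a fatty acid elongase), Camk2a (a calmodulin-dependent kinase) and Srm_1, a numbered copy of the spermidine synthase gene, were among the others, with log2 fold changes from -2.96 to -2.29.

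Of the reference genes often used for normalisation, Ppia (cyclophilin A) had 1099 and 1168 CPM against 1031 and 1056 CPM and was not called (log2 fold change -0.12 ± 0.07, adjusted p = 0.131). Scaled to library totals alone it was called lower, at -0.34. Actb (beta-actin) was called higher by 0.18 ± 0.06 (adjusted p = 0.0115), a call lost with the replicate block (adjusted p = 0.0612), without either library labelled LPS_IFNg and without LPS_IFNg_TubB replicate 1, and by library totals alone this turned to -0.04. Gapdh, a glycolytic enzyme, was higher by 0.59 ± 0.06. B2m, the light chain of class I histocompatibility molecules, rose from 293 and 312 CPM to 1483 and 1359 CPM and is thus no reference in these libraries.

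The gene lists below are read against the background of 27.1% higher and 25.9% lower. Of all tested genes, 219 passed the count filter only through the libraries labelled LPS_IFNg_TubB and 150 only through those labelled LPS_IFNg, and for such genes the direction of a call is set by the filter. Counts of list members called include them, with their number given where a list holds several. Cytokines, the secreted ligands, were mostly higher. Of 25 genes, 15 were measured, 12 were higher and none was lower, with a median log2 fold change of 2.26. Of the 12, 4 passed the filter only through the libraries labelled LPS_IFNg_TubB. Csf3, the growth factor for granulocytes, had 18.9 and 22.5 CPM in the libraries labelled LPS_IFNg and 1253 and 1065 CPM in those labelled LPS_IFNg_TubB. The groups were far apart, with a log2 fold change of 5.80 ± 0.11 (adjusted p = 5.95e-28). Il6, an inducer of the acute phase response, held 0 counts in both libraries labelled LPS_IFNg and 301 and 267 counts in the others, at least 218-fold higher. That limit was at least 108-fold without LPS_IFNg replicate 1 and 110.5-fold without replicate 2. Il1b, the secreted pyrogen, had 4 and 1 counts against 86 and 73, a log2 fold change of 5.16 ± 0.49, which was 6.35 without LPS_IFNg replicate 1 and 4.53 without replicate 2. Il27 had 2 counts over 2 libraries against 192. Il1rn, the antagonist named above, had 696 and 750 CPM against 5388 and 4673 CPM. Gdf15, Il18 and Lif were not called. Tnf and Il10 held 0 counts in all libraries and were not testable. Tnf is among 1740 symbols that also occur with a numbered copy in the annotation, of which 1294 held 0 counts in these 4 libraries.

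All 10 measured chemokines of 19 were higher, with a median log2 fold change of 3.03. Of these, 2 passed the filter only through the libraries labelled LPS_IFNg_TubB, and the other 8 were also higher. Ccl2, which attracts monocytes, had 752 and 803 CPM in the libraries labelled LPS_IFNg and 4330 and 3841 CPM in those labelled LPS_IFNg_TubB (2.39 ± 0.07, adjusted p = 1.65e-23). Ccl5, which attracts T cells and monocytes, had 2.97 and 3.89 CPM against 91.1 and 76.6 CPM. Cxcl10, whose start is shown above, had 1.81 and 0.845 CPM against 20.7 and 13.4 CPM, and its log2 fold change of 3.63 ± 0.38 became 4.27 without LPS_IFNg replicate 1. Cxcl9, another ligand of CXCR3, was at 0 counts in both libraries labelled LPS_IFNg and had 86 counts in the others, at least 33.1-fold higher. The limit was 16.3-fold without LPS_IFNg replicate 1 and 16.7-fold without replicate 2.

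Receptors were mostly higher. Of 27 measured cytokine and chemokine receptors of 32, 16 were higher (59.3%) and 3 lower (11.1%), the latter share below the background. Cd40, the co-stimulatory receptor for CD40 ligand, had 3.62 and 3.38 CPM in the libraries labelled LPS_IFNg and 369 and 300 CPM in those labelled LPS_IFNg_TubB (6.56 ± 0.15). Ccrl2, a decoy receptor for chemoattractants, rose from 4.94 and 5.75 CPM to 213 and 133 CPM, and Fas, the death receptor, by 3.46 ± 0.27 on the log2 scale. The 3 lower receptors were Cx3cr1, Il6ra and Csf1r. Csf1r, the receptor for the macrophage growth factor, had 496 and 459 CPM against 180 and 215 CPM. Of the receptors for the stimulus itself, Ifngr1 and Ifngr2 of the IFN-γ receptor were not called. Neither was Tlr4, with 87.5 and 95.3 CPM against 73.9 and 82 CPM (edgeR adjusted p = 0.0646). The TLR4 co-receptors Cd14 and Ly96 were called higher, Cd14 with 1393 and 1484 CPM against 2911 and 2755 CPM.

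Of 23 measured Toll-like receptors and adaptors of 26, 17 were higher and 3 lower, with a median log2 fold change of 0.75. Tlr3, which senses double-stranded RNA, had 4.94 and 4.39 CPM against 31.1 and 30.9 CPM (2.72 ± 0.23). Ticam2, the adaptor that links TLR4 to TRIF, rose by 2.03 ± 0.12 and the kinase Irak2 by 1.97 ± 0.09. The lower members were Traf3, Irak1 and Tlr2, and without LPS_IFNg replicate 1, 1 member was called lower. By library totals alone, 5 were lower.

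Signalling genes were raised in both pathways. Of 20 measured JAK-STAT components of 22, 15 were higher and none was lower, with a median of 0.51. Of the 15, 2 passed the filter only through the libraries labelled LPS_IFNg_TubB. Socs3, a feedback inhibitor of cytokine receptors, had 39.4 and 30.9 CPM in the libraries labelled LPS_IFNg and 712 and 677 CPM in those labelled LPS_IFNg_TubB (4.30 ± 0.10, adjusted p = 1.05e-26). Socs1, the inhibitor of interferon receptors, had 0.659 and 1.01 CPM against 59.1 and 60 CPM. Stat2 rose by 3.63 ± 0.13. The kinases and factors closer to the median changed less, and Stat5a, Stat5b, Pias1, Socs5 and Socs6 were not called. Of 26 NF-kappaB subunits and regulators, all measured, 21 were higher and Nfkbid alone was lower. Traf1 had 0.659 and 0.507 CPM against 72 and 48.1 CPM. Tnfaip3, which encodes the inhibitor A20, had 65.2 and 70.6 CPM against 508 and 420 CPM (2.77 ± 0.09), and Nfkbiz and Birc3 rose by 2.41 ± 0.10 and 2.08 ± 0.21.

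MAP kinase phosphatases and AP-1 factors had 21 of 24 measured members higher, with a median of 1.84. Of the 21, 4 passed the filter only through the libraries labelled LPS_IFNg_TubB. Dusp1, a phosphatase of p38 and JNK, had 9.72 and 11.5 CPM against 178 and 128 CPM (3.84 ± 0.16). Dusp10 rose by 3.76 ± 0.48. The one lower member, Dusp6, was called in this fit, but not without LPS_IFNg replicate 2 or without either library labelled LPS_IFNg_TubB.

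Among interferon regulatory factors, 6 of 7 measured were higher and Irf3 was lower. Irf1, whose start is shown above, had 5.27 and 5.91 CPM in the libraries labelled LPS_IFNg and 758 and 692 CPM in those labelled LPS_IFNg_TubB (7.01 ± 0.12, adjusted p = 5.58e-30). Irf7, a factor of the type I interferon response, had 7.42 and 7.44 CPM against 237 and 171 CPM. Irf8 rose by 3.02 ± 0.11 and Irf9 by 2.20 ± 0.19.

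Interferon-inducible GTPases, which coat and disrupt vacuoles that hold pathogens, changed most. Of 20 members 14 were measured, and 12 of these passed the filter only through the libraries labelled LPS_IFNg_TubB, so that their calls could only be higher. The other measured members, Gbp7 and Irgm1, were also higher. The whole list summed to 13.8 and 12.2 CPM in the libraries labelled LPS_IFNg and to 7130 and 6224 CPM in those labelled LPS_IFNg_TubB. Gbp2b had 0.494 and 0.338 CPM, or 5 counts in all, against 2437 and 2099 CPM, a log2 fold change of 12.33. Gbp2 had 0.824 and 0.338 CPM, or 7 counts in all, against 1467 and 1372 CPM. Its log2 fold change of 11.19 became 11.94 without LPS_IFNg replicate 1. These 2 and the other guanylate-binding proteins are close paralogs, and reads that fit several copies are not assigned. Gbp5 held 1 count, in LPS_IFNg replicate 2, against 6681, a ratio of 7704 with an exact 95% interval from 1382 to 3.044e+05. Without that library it was at least 1300-fold higher, and without LPS_IFNg replicate 1 the ratio was 3804. Iigp1, an immunity-related GTPase, was at 0 counts against 7630, at least 2933-fold higher. The limit was 1448-fold without LPS_IFNg replicate 1 and 1485-fold without replicate 2. Gbp7 had 2.47 and 1.86 CPM against 740 and 649 CPM (8.31 ± 0.14). The list's median log2 fold change was 11.24 as fitted and 8.31 when 7 members with few counts were set to their limit.

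Of 37 measured antiviral interferon-stimulated genes of 41, 36 were higher and none was lower. The median was 3.09. Among the 29 that did not pass the filter through the libraries labelled LPS_IFNg_TubB alone, 28 were higher. Zbp1 is given above. Oasl2, an oligoadenylate synthetase-like protein, had 2 counts over the 2 libraries labelled LPS_IFNg and 851 in the others, a ratio of 491 with an exact 95% interval from 135 to 4058. Without LPS_IFNg replicate 1 it was at least 162-fold higher and without replicate 2 the ratio was 248. Ifi44, an antiviral protein of the interferon response, had 38.2 and 28.3 CPM in the libraries labelled LPS_IFNg_TubB and 2 counts in those labelled LPS_IFNg.

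Effector enzymes of activated macrophages followed. Of 9 measured genes for nitric oxide, arginine and itaconate enzymes of 15, Nos2, Acod1, Odc1, Asl and Gch1 were higher and Slc7a1 and Gchfr lower. Without LPS_IFNg_TubB replicate 2, and likewise by library totals alone, 4 were lower. On the scale of the 4 libraries alone, Nos2 had 199 and 165 CPM against 7445 and 6160 CPM, a log2 fold change of 5.22 ± 0.11 (adjusted p = 6.31e-15). Odc1, the first enzyme of polyamine synthesis, had 1074 and 1079 CPM against 3671 and 3546 CPM. Slc7a1, an arginine transporter, had 282 and 278 CPM against 133 and 142 CPM (-1.02 ± 0.08). Arg1, the arginase of alternatively activated macrophages, had 5 counts over the 2 libraries labelled LPS_IFNg and 0 in the others and was not tested.

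Of 14 measured genes for prostanoid enzymes and receptors of 20, 4 were higher and 5 lower, close to the background. By library totals alone, 8 were lower. Of the 14, 3 passed the filter only through the libraries labelled LPS_IFNg_TubB, and Ptger4 was the only one of them called higher. The higher call of Ptger4, a prostaglandin E receptor, was lost with DESeq2 (adjusted p = 0.0892) and without LPS_IFNg replicate 1 or LPS_IFNg_TubB replicate 2. Ptgs2, the inducible cyclooxygenase, had 43.2 and 44.6 CPM in the libraries labelled LPS_IFNg and 2052 and 1465 CPM in those labelled LPS_IFNg_TubB (5.32 ± 0.23, adjusted p = 5.33e-05). Ptges, the inducible prostaglandin E synthase, had 17 and 16.9 CPM against 83.7 and 84 CPM. Ptgs1, the constitutive cyclooxygenase, had 63.1 and 66.2 CPM against 13.1 and 10.8 CPM (-2.45 ± 0.16). Alox5, Lta4h, Ptges2 and Ptges3 were also lower.

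Of the 6 NADPH oxidase subunits, 4 were higher and none lower. Cybb, the catalytic subunit, had 389 and 376 CPM against 3122 and 2816 CPM (2.96 ± 0.07). Cyba, its membrane partner, rose by 0.43 ± 0.07. Rac2 was called at 0.24 ± 0.07, a call lost without LPS_IFNg replicate 1.

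All 13 measured of 24 genes of antigen presentation and the immunoproteasome were higher, with a median of 3.04. Cd274, the checkpoint ligand PD-L1, had 11.9 and 13.9 CPM in the libraries labelled LPS_IFNg and 626 and 494 CPM in those labelled LPS_IFNg_TubB (5.44 ± 0.13). H2-T23, a non-classical class I molecule, had 20.9 and 18.4 CPM against 329 and 277 CPM, and Nlrc5, the class I transactivator, rose by 3.68 ± 0.11. Most classical histocompatibility genes were among the 11 members not tested. Of 21 measured genes of the inflammasome and cell death of 24, 19 were higher and none lower. Of the 19, 2 passed the filter only through the libraries labelled LPS_IFNg_TubB. Casp4, the caspase that binds cytosolic LPS, had 15.5 and 11.3 CPM against 137 and 124 CPM (3.28 ± 0.14). Il18bp, which neutralises interleukin-18, rose by 3.66 ± 0.46.

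Metabolic lists diverged. Of 22 measured genes of glycolysis and lactate export of 24, 20 were higher and Pfkm and Slc16a1 were lower. Slc2a1, the glucose transporter GLUT1, had 286 and 325 CPM in the libraries labelled LPS_IFNg and 1346 and 1213 CPM in those labelled LPS_IFNg_TubB (2.07 ± 0.08, adjusted p = 6.75e-21). Hk3, a hexokinase, had 252 and 273 CPM against 1200 and 1141 CPM. Pfkfb3, which makes the activator of phosphofructokinase, rose by 1.72 ± 0.11. HIF-1 is known to regulate both glycolysis and the hypoxia-response genes, of which 18 of 22 were higher with a median of 1.44. Of the 18, 2 passed the filter only through the libraries labelled LPS_IFNg_TubB. Bnip3, a mitophagy receptor, had 19.4 and 30.6 CPM against 359 and 273 CPM (3.65 ± 0.25), and Ndrg1 rose by 3.37 ± 0.26. Hif1a itself was not called.

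Genes of the tricarboxylic acid cycle had no member higher and 15 of 25 lower, with a median of -0.30. Idh2, the mitochondrial isocitrate dehydrogenase, had 164 and 154 CPM against 58.4 and 61.8 CPM (-1.40 ± 0.10). Fh1 (fumarase) changed by -0.99 ± 0.10, and Sdha and Sdhb (succinate dehydrogenase) were lower. Nuclear subunits of the respiratory chain had 11 of 34 lower and 2 higher, and all changes were under 2-fold. Without LPS_IFNg replicate 2, 7 were lower, and without LPS_IFNg replicate 1, 0 were higher. Ndufv2, of complex I, had 85.7 and 98.7 CPM against 55 and 67.5 CPM. With libraries scaled to totals alone, 23 genes of the cycle and 24 of the chain were called lower.

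Of 25 measured genes of cholesterol synthesis and uptake of 26, 15 were lower and 2 were higher, and 8 were lower without LPS_IFNg replicate 1, 8 with DESeq2 and 7 in the test against a 1.2-fold change. Acat2, an acetyl-CoA acetyltransferase at the first step of the pathway, had 62.6 and 60.7 CPM in the libraries labelled LPS_IFNg and 27.2 and 32.7 CPM in those labelled LPS_IFNg_TubB. Of 13 measured liver X receptor targets of 16, 9 were lower. Scd2, a fatty acid desaturase, had 670 and 602 CPM against 193 and 250 CPM, and Abca1, the cholesterol exporter, had 24.4 and 13.9 CPM against 8.51 and 5.62 CPM. The receptors Nr1h2 and Nr1h3 were higher.

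Of 21 measured genes of amino acid transport and ATF4 targets, 12 were lower and 7 higher. Slc7a5, a leucine transporter, had 125 and 137 CPM against 28.5 and 37.5 CPM (-1.96 ± 0.12), and Shmt2, of mitochondrial one-carbon metabolism, changed by -1.52 ± 0.09. Sesn2, a stress-induced inhibitor of mTORC1, rose by 1.51 ± 0.13. NRF2 targets and glutathione genes had 15 of 27 higher and 4 lower, or 2 lower without LPS_IFNg replicate 2 and 8 lower by library totals alone. Their median of 0.21 was -0.01 by library totals alone. Prdx5, a peroxiredoxin, had 66.2 and 76.4 CPM against 538 and 446 CPM (2.78 ± 0.10). Hmox1 (heme oxygenase 1) had 236 and 387 CPM against 1480 and 1512 CPM, with a log2 fold change of 2.27 ± 0.33 (adjusted p = 0.0266). Its groups did not overlap, but the call was lost without either library labelled LPS_IFNg_TubB and with no count filter.

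**Figure D4:**
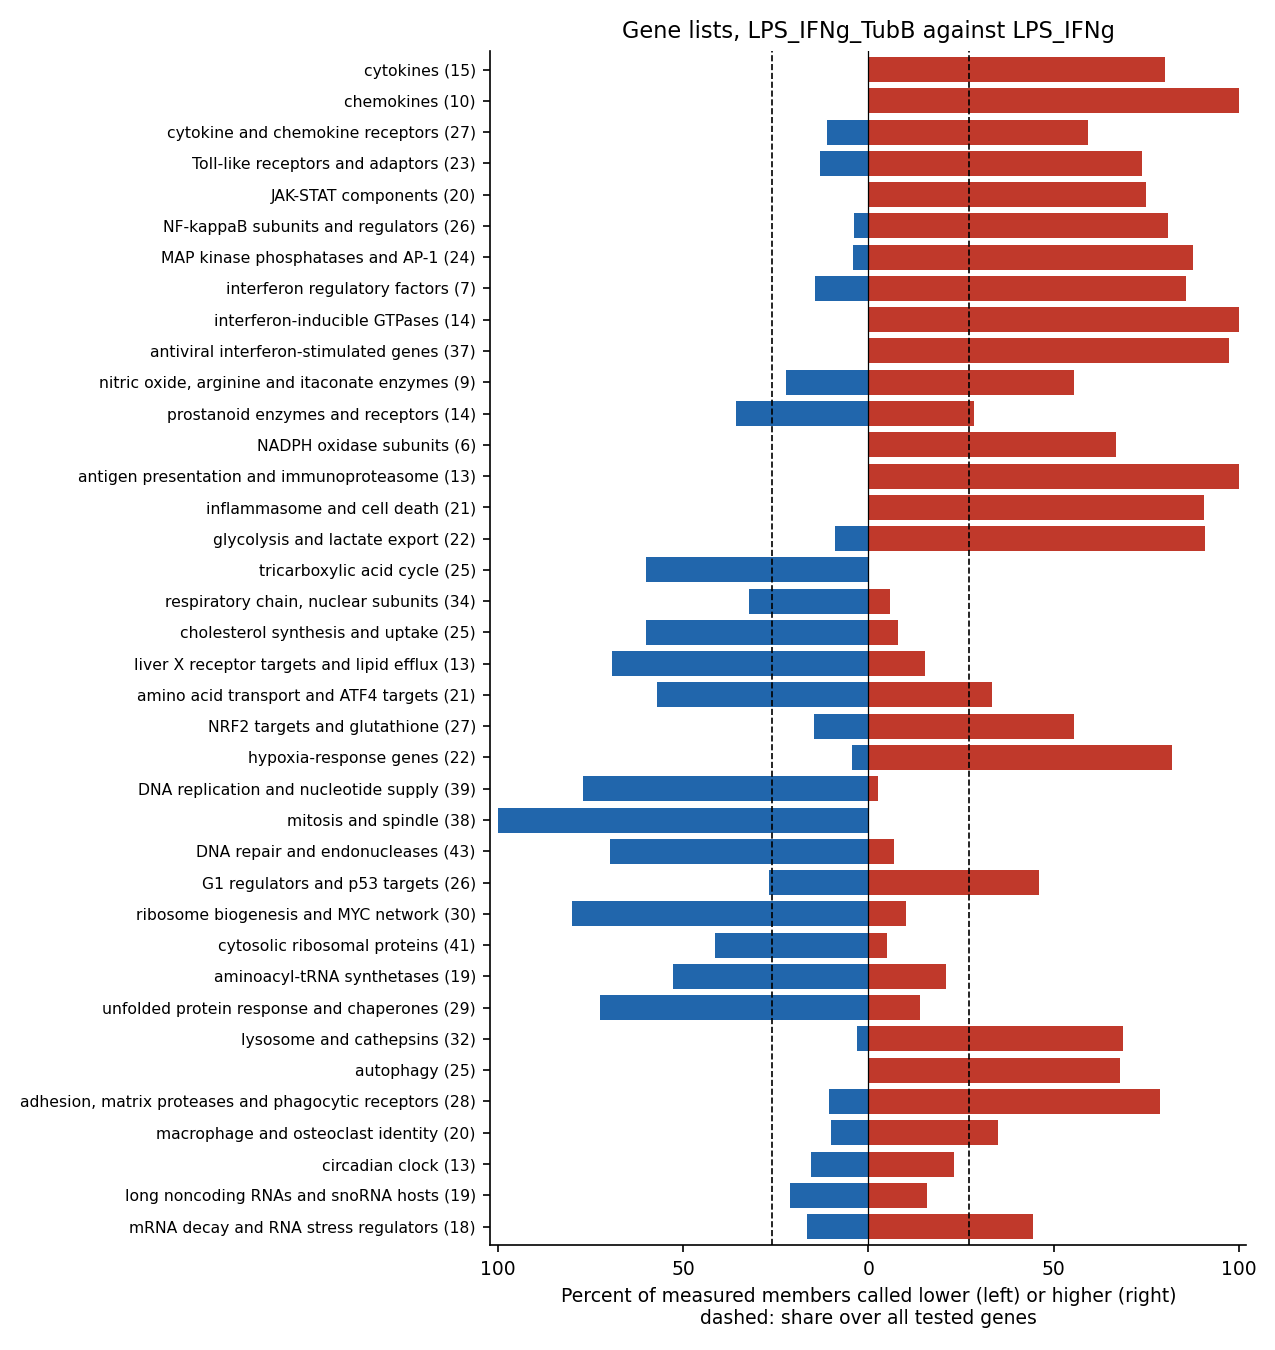
Percent of the measured members of each gene list, numbers in brackets, that were called higher (right, red) or lower (left, blue) in the libraries labelled LPS_IFNg_TubB against those labelled LPS_IFNg, for the lists with at least 5 measured members. The dashed lines mark the shares over all tested genes, 27.1% higher and 25.9% lower, and all 38 measured mitosis genes lie on the left while the 14 measured interferon-inducible GTPases, 12 of which passed the filter only through the libraries where they are high, lie on the right.

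Genes of mitosis were lower throughout the list. All 38 measured of 40 mitosis and spindle genes were lower, 19 of them by at least 2-fold, with a median of -1.01. Bub1b, of the spindle checkpoint, had 190 and 181 CPM in the libraries labelled LPS_IFNg and 42.8 and 61.5 CPM in those labelled LPS_IFNg_TubB (-1.81 ± 0.11, adjusted p = 5.09e-13). Plk1, whose start is shown above, had 114 and 104 CPM against 30.6 and 36.9 CPM. Anln (anillin, of the contractile ring) and Mybl2 (a transcription factor of the late cell cycle) changed by -1.72 ± 0.11 and -1.52 ± 0.12. None of these overlapped between groups, as was true of 5640 of all 5645 called genes.

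Of 39 measured genes of DNA replication and nucleotide supply, 30 were lower and Pola2 was higher, a call lost without either library labelled LPS_IFNg. The median was -0.65. Dut, the dUTPase, had 63.8 and 63.2 CPM against 18.9 and 22 CPM (-1.62 ± 0.14), and Tk1 (thymidine kinase) and Pold2 (a subunit of DNA polymerase delta) changed by -1.57 ± 0.15 and -1.49 ± 0.15. Of 43 measured genes of DNA repair and endonucleases, the list that holds Ankle1, 30 were lower and 3 higher, with a median of -0.66. The higher members, Rmi2, Mus81 and Slx4, all lost their calls without LPS_IFNg replicate 1. Apex1, the endonuclease of base excision repair, had 147 and 125 CPM against 38.4 and 38.2 CPM (-1.83 ± 0.11). Ankle1 had the largest fall in this list.

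G1 regulators and p53 targets moved both ways, with 12 of 26 measured higher and 7 lower. The antiproliferative genes Btg1 and Btg2 had log2 fold changes of 2.36 ± 0.10 and 2.56 ± 0.18. Mdm2, the ubiquitin ligase of p53, had 235 and 280 CPM against 1321 and 1040 CPM (2.19 ± 0.12), and Pmaip1, a pro-apoptotic p53 target, rose from 18.6 and 16.2 CPM to 75 and 64.8 CPM. Ccnd1, Ccnd2, Ccne1 and Cdk4 were lower, and so was Trp53. The list's median of 0.09 was -0.13 by library totals alone.

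Ribosome biogenesis and the MYC network had 24 of 30 members lower, with a median of -0.74. Ncl had 2154 and 1980 CPM in the libraries labelled LPS_IFNg and 824 and 922 CPM in those labelled LPS_IFNg_TubB (-1.24 ± 0.07). Dkc1, the pseudouridine synthase of the nucleolus, had 133 and 115 CPM against 33.4 and 32.1 CPM. The 3 higher members were Myc itself, its partner Max and its antagonist Mxd1. Myc had 10.4 and 11.8 CPM against 77.3 and 71.4 CPM (2.74 ± 0.15), and Mxd1 had 5.6 and 6.76 CPM against 173 and 140 CPM. The paralog Mycn, chosen after its values were seen, ran the other way, with 882 and 843 CPM against 169 and 201 CPM (-2.22 ± 0.08). Among cytosolic ribosomal proteins 17 of 41 were lower and 2 higher, and no change reached 2-fold. Without LPS_IFNg replicate 2, 6 were lower, and without either library labelled LPS_IFNg 0 were higher. By library totals alone, 32 were lower. Rpl3 had 737 and 741 CPM against 490 and 476 CPM. Of 19 measured aminoacyl-tRNA synthetases 10 were lower and 4 higher. Without either library labelled LPS_IFNg, 6 were lower, and by library totals alone 1 was higher. Wars, an interferon-induced synthetase and 1 of the 4, rose by 0.63 ± 0.08.

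Of 29 measured genes of the unfolded protein response and chaperones, 21 were lower and 4 higher, with a median of -0.58. Herpud1, of the degradation pathway of the endoplasmic reticulum, had 98.7 and 76 CPM against 32.9 and 34.7 CPM (-1.37 ± 0.13), and Pdia4, a disulfide isomerase, changed by -1.14 ± 0.15. The cochaperone Dnajb1 rose by 1.28 ± 0.13.

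Lysosomal genes were higher by small amounts, 22 of 32 with a median of 0.38. By library totals alone 17 were higher and 6 lower. Tfeb, a transcription factor for lysosomal genes, was called lower by TMM scaling, and was not called without LPS_IFNg replicate 2 or LPS_IFNg_TubB replicate 2. Ctss (cathepsin S, which trims the class II invariant chain) had 205 and 197 CPM in the libraries labelled LPS_IFNg and 790 and 772 CPM in those labelled LPS_IFNg_TubB (1.96 ± 0.07). Psap (prosaposin) had 1339 and 1369 CPM against 4600 and 4115 CPM. Of 25 measured autophagy genes 17 were higher and none lower, or 11 higher by library totals alone. Sqstm1, the cargo receptor p62, had 494 and 551 CPM against 1585 and 1362 CPM, and Atg13 rose by 1.45 ± 0.09.

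Of 28 measured genes for adhesion, matrix proteases and phagocytic receptors of 37, 22 were higher and Itga4, Fcgr2b and Itgax were lower. The median was 1.17. Of the 22, 3 passed the filter only through the libraries labelled LPS_IFNg_TubB, Fpr2 among them. Fcgr4, an activating Fc receptor, had 11.2 and 12.5 CPM against 237 and 216 CPM (4.25 ± 0.12, adjusted p = 4.9e-24). Fcgr2b, the inhibitory Fc receptor, was the lower one among the Fc receptors of the list. Fpr2, a formyl peptide receptor, held 0 counts in the libraries labelled LPS_IFNg and 553 in the others, at least 213-fold higher. The limit was 105-fold without LPS_IFNg replicate 1 and 108-fold without replicate 2. In the insulin-like growth factor axis 4 of 14 genes were measured, of which Igfbp4 and Igf1 were lower and the insulin receptor Insr was higher. Igf1 had 11.4 and 15.2 CPM against 3.68 and 3.97 CPM (-1.78 ± 0.31).

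Of 20 measured genes of macrophage and osteoclast identity, 7 were higher and Gas6 and Csf1r lower. The list's median of 0.13 was -0.09 by library totals alone, with 7 members higher and 7 lower. Adgre1, the marker F4/80, had 10.9 and 15.7 CPM against 101 and 87.8 CPM (2.82 ± 0.15). Gas6, a ligand of receptors for dying cells, had 31.6 and 32.5 CPM against 6.67 and 6.61 CPM (-2.27 ± 0.21). The osteoclast genes Acp5, Ctsk and Nfatc1 were not called.

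Regulators of mRNA decay had 8 of 18 higher and 3 lower, with a median of 0.21 that was -0.01 by library totals alone. Zfp36 (tristetraprolin), which destabilises cytokine mRNAs, had 22.4 and 26.4 CPM in the libraries labelled LPS_IFNg and 251 and 215 CPM in those labelled LPS_IFNg_TubB (3.25 ± 0.11, adjusted p = 1.04e-21). Zc3h12a (Regnase), an endonuclease for the same class of mRNAs, rose by 1.28 ± 0.09. Long noncoding RNAs had 3 of 19 higher and 4 lower, or 1 lower without LPS_IFNg replicate 1 and 7 lower by library totals alone. The shares of 15.8% higher and 21.05% lower in the main fit were below the background. Mir22hg rose by 2.71 ± 0.20. Mir155hg, host of a microRNA of macrophage activation, had 1.65 and 0.507 CPM against 15.6 and 19 CPM, and its log2 fold change of 3.98 ± 0.39 was 5.04 without LPS_IFNg replicate 1 and 3.39 without replicate 2. Of 13 measured clock genes, Per1, Cry1 and Bhlhe40 were higher and Dbp and Nr1d2 lower. These shares, 23.1% and 15.4%, were below the background. Without LPS_IFNg replicate 1, 1 member was called higher, and without LPS_IFNg replicate 2, 1 was called lower. By library totals alone, 1 was higher and 4 lower. Per1 had 54.5 and 49.5 CPM against 93.4 and 76.2 CPM.

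The same label step without the labelled stimulus, TubB minus mock, shares no library with this comparison. In the fit of all 8 libraries and 11081 genes it called 5671 genes (51.2%). The difference between the 2 effects was called in 0 genes (0%), with a smallest adjusted p of 1. At an unadjusted p under 0.05 it was higher in 134 and lower in 143 genes, together 2.5% of those tested. That share is below the 0.05 expected where no gene differs. In each alternative run, which included DESeq2, limma-voom, limma on the deposited log2 values and leaving out each of the 8 libraries, the count was also 0. Over the 5645 genes called here, the median absolute difference between the effects was 0.11 on the log2 scale, beside a median absolute change of 0.706. The 95% interval of the difference reached a median of 0.38 to either side. It holds for single genes and is not adjusted for the number tested. Smaller differences could therefore go undetected, and larger ones could also stay uncalled after adjustment. For Nos2 the effects were 5.22 and 5.26, for Igfbp4 -3.84 and -3.47, and for Cx3cr1 -3.41 and -3.16. For Ankle1 they were -2.96 and -1.87, a difference of -1.10 with a 95% interval of 0.82 to either side and an unadjusted p of 0.0108 (edgeR, not called after adjustment).

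**Figure D5:**
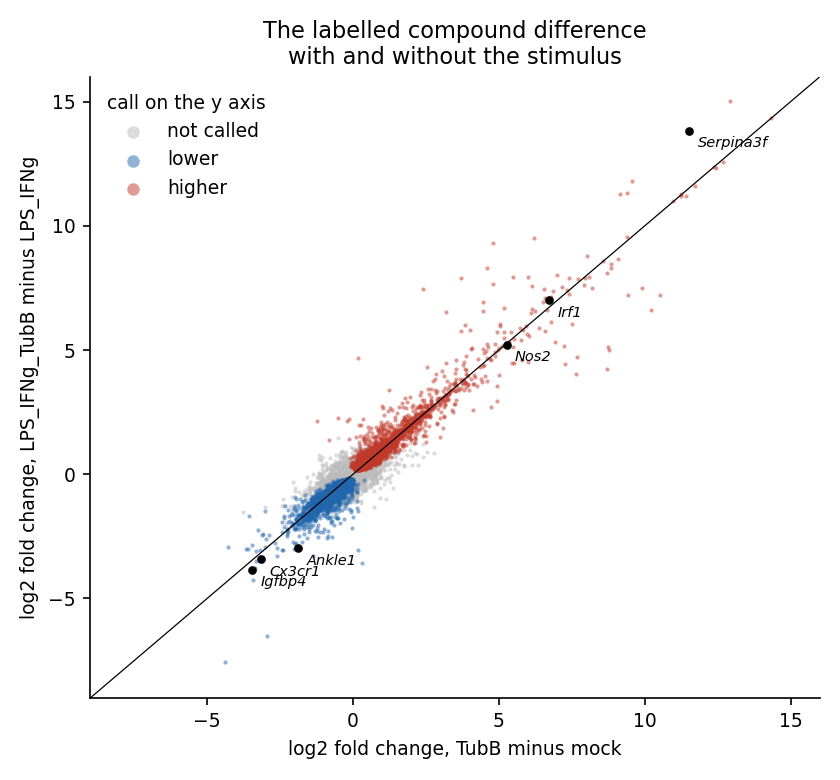
The log2 fold change of LPS_IFNg_TubB minus LPS_IFNg (vertical) against that of TubB minus mock (horizontal), 1 point per gene in the fits of both, coloured by the call on the vertical axis, with the line of equal change. Points spread along the line, Nos2 at 5.22 and 5.26 among them, and Ankle1 lies below it at -2.96 and -1.87.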

How the data were processed

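Gene counts of 8 RAW264.7 libraries, 2 per deposited label, were used as the authors deposited them. Alignment used STAR 2.7.0 and GRCm38.p6, per the submitters' processing notes. Read pairs were then counted over exons by gene in featureCounts 2.0.1 with no strand option and no option for reads that map to several places, per the file headers. The deposited log2 values are regularised log transforms of these counts and served only as an alternative. Per the labels' protocols, the libraries hold polyadenylated RNA and do not keep strand.

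Genes were kept with filterByExpr (minimum count 10, minimum total 15), scaled by TMM and tested with edgeR 4.0.16 in R 4.3.3 (quasi-likelihood test, 2 residual degrees of freedom, Benjamini-Hochberg adjustment over all tested genes, adjusted p under 0.05). CPM values use the TMM library sizes of these 4 libraries, except where mock and TubB libraries are named, which use those of all 8. Limits for genes at 0 counts use a floor of 3 counts over the group, and ratios of 1 to 3 counts carry exact intervals. Of the 42454 rows of the table, 17354 had a count in these libraries. The difference between LPS_IFNg_TubB minus LPS_IFNg and TubB minus mock was tested in 1 fit of all 8 libraries.

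The comparison, the gene lists and the tests were chosen with earlier results of these data known. Named genes are the 10 largest rises and falls of called genes whose groups do not overlap and whose average is 3 log2 CPM or more, the 5 largest gains and losses in CPM, up to 4 called members of each list with the largest fold change, genes called for the difference of effects (none), and 15 genes set by name. Unnamed gene models and pseudogenes were left out of the first 2 sets. Mycn, Cd14, Ly96, and members named only to complete a count or as not called, were chosen after their values were seen. Promoter sequences are from RefSeq on GRCm38.p6, which held 135 of 180 named genes. Alternatives were RLE scaling, other filters, a replicate block, DESeq2 1.42.0, limma 3.58.1, a test against a 1.2-fold change and leaving out each library. Scaling by library totals was added after seeing the data. The labels give same-numbered libraries of the 2 groups nothing in common but a number. The correlation of their deviations was 0.021, which cannot show whether they share a culture or day. Some genes that meet these rules are not reported here.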

Additional observations from a re-analysis of the deposited data

How the results depend on the processing

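The counts of genes called higher and lower lay within 1.5 times of 2889 and 2756 in every alternative but the scaling by totals named below. Leaving out each library in turn gave 2305 to 2729 higher and 2042 to 2579 lower, and DESeq2 gave 2334 and 2009. No gene was called in opposite directions in any setting. Scaling by library totals alone, chosen after seeing the data, moved the count called lower to 4144 and turned the log2 fold change of Actb to -0.038. The cause was not tested. With the replicate block, 2901 genes were higher and 2763 lower, of which 2869 and 2723 were shared with the fit without it. Its effect on the named genes compared was the loss of 1 call, that of Actb. Whether same-numbered libraries share a culture or day is not given by the labels and was not tested. For the groups compared here the correlation of deviations was 0.021. It was 0.15 for TubB with LPS_IFNg_TubB, 0.085 for mock with LPS_IFNg and -0.052 to 0.017 for the other pairs of groups. The count for the difference of effects was 0 in every setting run for it, and its smallest adjusted p was 0.0539 with the replicate block and 1 in the others. Leaving out each of the 8 libraries gave 0 to 0. In a window of 200 bases before the start, the ISRE core occurred in 17.1% of promoters of genes at least 8-fold higher and 1.96% of those of tested genes, while the CHR share in mitosis genes fell from 70.6% to 32.4% and the kappaB share in genes at least 8-fold higher from 3.74% to 1.6%. With 2 libraries per group, genes of low abundance were called least often. Where leaving out 1 library leaves a lone sample, it is assumed to vary like the other group.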
